A study of Mus musculus with 9 samples.

Results

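The nuclear genes of respiratory complex I were followed over 3 embryonic stages in brown adipose tissue (BAT), the fat depot that makes heat in mammals. The set was every entry of the deposited expression table whose gene symbol begins with Nduf, which gave 45 of 30915 entries. Of these, 36 encode complex I subunits, 7 are the assembly factors Ndufaf1 to Ndufaf7, and the last 2 are Ndufa4 and Ndufa4l2. Of 37 nuclear subunit genes listed, Ndufb1 was not analysed here. Ndufaf8 was in the table under its older symbol, 1810043H04Rik, and so fell outside the rule. The tissue came from untreated wild-type C57Bl6J embryos at 3 stages a day apart, E14.5, E15.5 and E16.5, where E stands for embryonic day. MoGene-2_0-st arrays were run 3 per stage. Per the series design, each held RNA of a separate preparation that pooled the BAT of 3 embryos.

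Complex I takes electrons from NADH, passes them along a chain of flavin and iron-sulphur groups to ubiquinone, and pumps protons across the inner mitochondrial membrane. It is L-shaped, with a matrix arm that holds the electron path and a membrane arm that holds the pumps. The core of the matrix arm is encoded in the nucleus and the core of the membrane arm in mitochondrial DNA, while the many accessory subunits are nuclear. Assembly factors help build the complex, most are not part of the finished enzyme, and their roles were worked out largely in human cells. Brown adipocytes are packed with mitochondria, and Ucp1 lets the protons pumped by the chain flow back so that the energy is released as heat.

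All values are log2 expression from RMA, and comparisons use limma with Benjamini-Hochberg adjustment over all 30915 entries and a threshold of 0.05. E16.5 replicate 2 stood apart, with a median over all entries of 5.055 against 4.79 to 4.85 on the other 8 arrays. Over both days the median entry moved by 0.14 in log2, a shift that was near 0 for the entries above the median level. Of the Nduf genes, 44 had a mean percentile of at least 59.1 on the arrays. All 8 brown adipocyte markers rose from E14.5 to E16.5, among them Ucp1 and Cidea, and all 7 general adipocyte markers rose. Skeletal muscle, another tissue rich in mitochondria, moved the other way, with 11 of 12 markers lower at E16.5 and 0 higher. The log2 of the summed muscle signal was 14.03 to 14.09 at E14.5, 13.03 to 13.31 at E15.5 and 12.77 to 13.28 at E16.5, so muscle RNA was present at every stage. Leukocyte markers fell in 6 of 6 cases, neuron and Schwann cell markers in 3 of 6 and endothelial markers in 1 of 5, with 0 higher in these lists. Other lists held rises: 4 of 7 erythroid markers rose and 2 fell, 3 of 5 mural cell markers rose and 2 fell, 2 of 4 cartilage markers rose and 2 fell, and 1 of 4 epidermis and 1 of 4 liver markers rose. The log2 summed signal was 10.13 to 10.73 over all arrays for erythroid markers, and for mural markers 12.16 to 12.25 at E14.5 and 11.80 to 11.90 at E16.5. In whole tissue, fewer cells of a type and less RNA per cell cannot be told apart, and the part of these cell types in the results below was not tested.

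Over both days, E16.5 against E14.5, nearly the whole gene set rose together. Of 45 genes, 44 rose and 0 fell, where 22.0% of all entries rose and 17.4% fell. The median change was 1.31 in log2, or 1.17 above the median entry. Rises of at least 2-fold were seen in 34 genes, and the share of all entries at that size is not given here. The 3 values at E16.5 lay above the 3 at E14.5 for 44 of 45 genes, as they did for 30.9% of all entries. The exception to both counts was Ndufs5. The count of 44 was the same without E16.5 replicate 2.

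**Figure D1:**
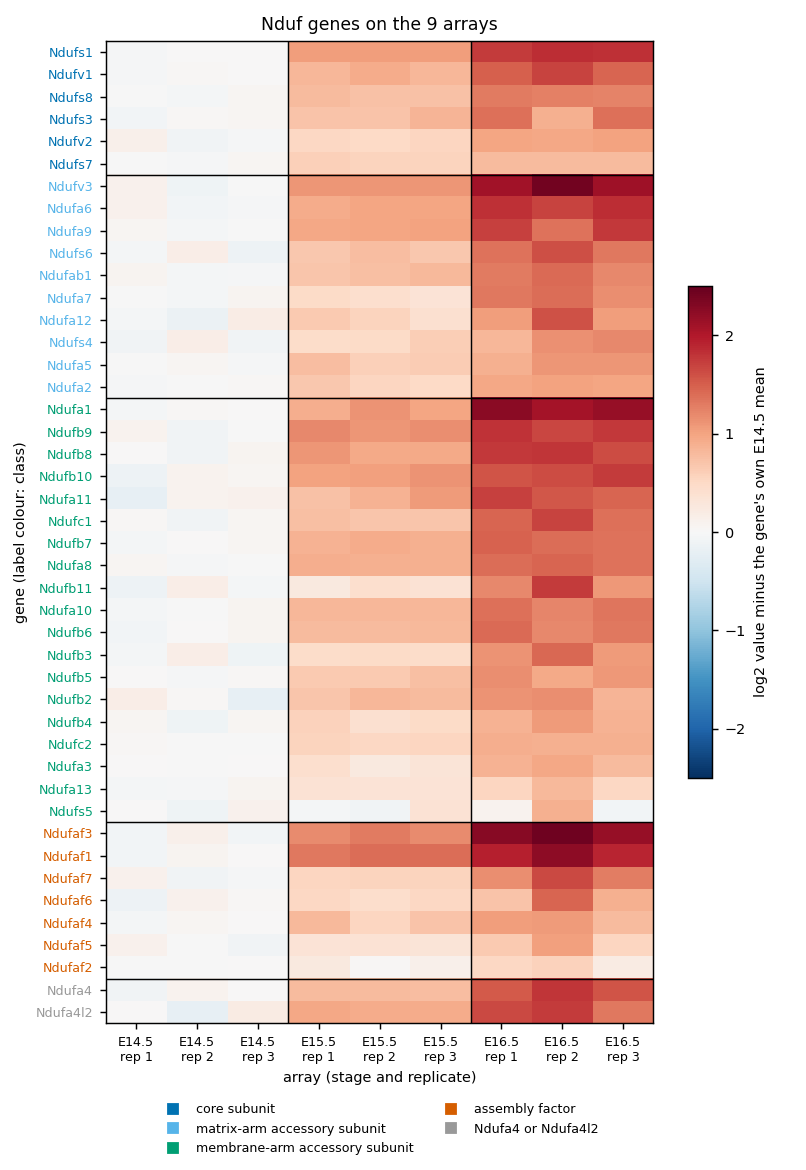
Heat map of 44 Nduf genes (rows, by class and then by change) on the 9 arrays (columns), as log2 value minus the gene's own E14.5 mean. Rows darken from E14.5 to E15.5 and again to E16.5 in all classes, and Ndufs5 shows colour mainly on E16.5 replicate 2.

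The 7 core subunits, which form the core of the matrix arm, all rose over both days, by 0.79 to 1.80 in log2 with a median of 1.26. Ndufs1, the large iron-sulphur subunit, rose most of them. Its values were 9.12, 9.17 and 9.17 at E14.5, 10.19 on each of the 3 arrays at E15.5, and 10.9015, 11.0003 and 10.9686 at E16.5. The stages did not overlap, and the change over both days was 1.80 ± 0.07 (standard error, SE, with 3 arrays per stage, limma adjusted p = 1.14e-08), a 3.49-fold rise. The 3 equal values at E15.5 are as deposited. Ndufv3 also had 3 equal values, and 7 other Nduf genes had the same value on 2 arrays, in each case at E15.5. The SD at E15.5 was 0.0 for Ndufs1 and Ndufv3, and the spread at that stage enters the SE and adjusted p given here. The cause of the equal values was not tested.

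Ndufv1, which binds NADH and the flavin that accepts its electrons, rose by 1.55 ± 0.09. Its partner Ndufv2, an iron-sulphur protein, rose by 0.99 ± 0.08, and Ndufs8, which carries iron-sulphur clusters, by 1.26 ± 0.07. Ndufs3, a structural part of the ubiquinone-binding module, rose by 1.21 ± 0.13, although E16.5 replicate 2 read 7.58 where the other arrays of that stage read 8.07 and 8.06. Ndufs7, which holds the last cluster before ubiquinone, had the smallest change of the core, 0.79 ± 0.07 (limma adjusted p = 4.72e-06). It was among the brightest entries, at 11.62, 11.60 and 11.68 at E14.5, and reached 12.42, 12.42 and 12.43 at E16.5.

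All 10 accessory subunits of the matrix arm rose over both days, by 0.99 to 2.21 with a median of 1.30. Ndufv3, a small subunit beside the NADH-binding module that is known for tissue-specific isoforms, led them. It read 7.46, 7.26 and 7.35 at E14.5, 8.46 on each array at E15.5, and 9.45, 9.77 and 9.47 at E16.5. The stages were fully separated and the rise was 2.21 ± 0.10 (limma adjusted p = 2.51e-08), or 4.62-fold. The table has 1 entry for Ndufv3, so its isoforms could not be told apart.

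Other matrix-arm subunits rose in a graded way. Ndufa6 rose by 1.79 ± 0.08 and Ndufa9, which sits where the arms meet, by 1.62 ± 0.11. Ndufs6, needed for a late step in assembly, rose by 1.43 ± 0.11. Ndufab1, counted here with the matrix arm, is also the mitochondrial acyl carrier protein of fatty acid synthesis, and rose by 1.30 ± 0.08. Ndufa7 and Ndufa12 rose by 1.29 ± 0.09 and 1.23 ± 0.15. Ndufs4, whose loss causes a Leigh-like brain disease in mice, rose by 1.06 ± 0.12, Ndufa5 by 1.03 ± 0.09 and Ndufa2 by 0.99 ± 0.08.

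Of 19 accessory subunits of the membrane arm, 18 rose over both days, and the median of the 19 was 1.31. Ndufa1, a small X-linked subunit that the complex needs in order to form, rose most. It had 7.24, 7.33 and 7.31 at E14.5, 8.20, 8.41 and 8.27 at E15.5, and 9.55, 9.36 and 9.47 at E16.5. Each stage was clear of the one before, and the rise was 2.17 ± 0.09 (limma adjusted p = 1.15e-08), or 4.50-fold. The next were Ndufb9 at 1.75 ± 0.08, Ndufb8 at 1.73 ± 0.09 and Ndufb10 at 1.65 ± 0.09, which belong to the far part of the arm. Apart from Ndufs5, which did not pass, the other members of this group rose by 0.62 to 1.57.

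At the low end of the membrane arm were Ndufc2 (0.90 ± 0.07), Ndufa3 (0.88 ± 0.08) and Ndufa13 (0.62 ± 0.09, limma adjusted p = 2.79e-04). Their mean percentiles on the arrays were 99.6, 98.9 and 84.6, in that order. Whether changes are compressed at such levels was not tested. Ndufa13, also known as GRIM-19, lies close to the ubiquinone site. Its values were 8.31, 8.35 and 8.44 at E14.5, 8.73, 8.70 and 8.71 at E15.5, and 8.91, 9.18 and 8.88 at E16.5. The stages were separate, with a change smaller than in most other subunits. Ndufb4 rose by 0.93 ± 0.09; a reference gene table also holds a close namesake, Ndufb4b, and whether probes are shared was not tested.

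Ndufs5, a membrane-arm subunit on the intermembrane side, was the exception. It read 4.18, 4.07 and 4.29 at E14.5, 4.14, 4.10 and 4.55 at E15.5, and 4.26, 5.07 and 4.10 at E16.5. The stages overlapped, and the high value came from E16.5 replicate 2. The change over both days was 0.30 ± 0.22 (limma adjusted p = 0.284), and 0.0035 without that array (adjusted p = 0.988). Its mean percentile on the arrays was 39.9, the only one of the 45 genes below the middle of the table. The missed test does not show that this transcript was level.

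**Figure D2:**
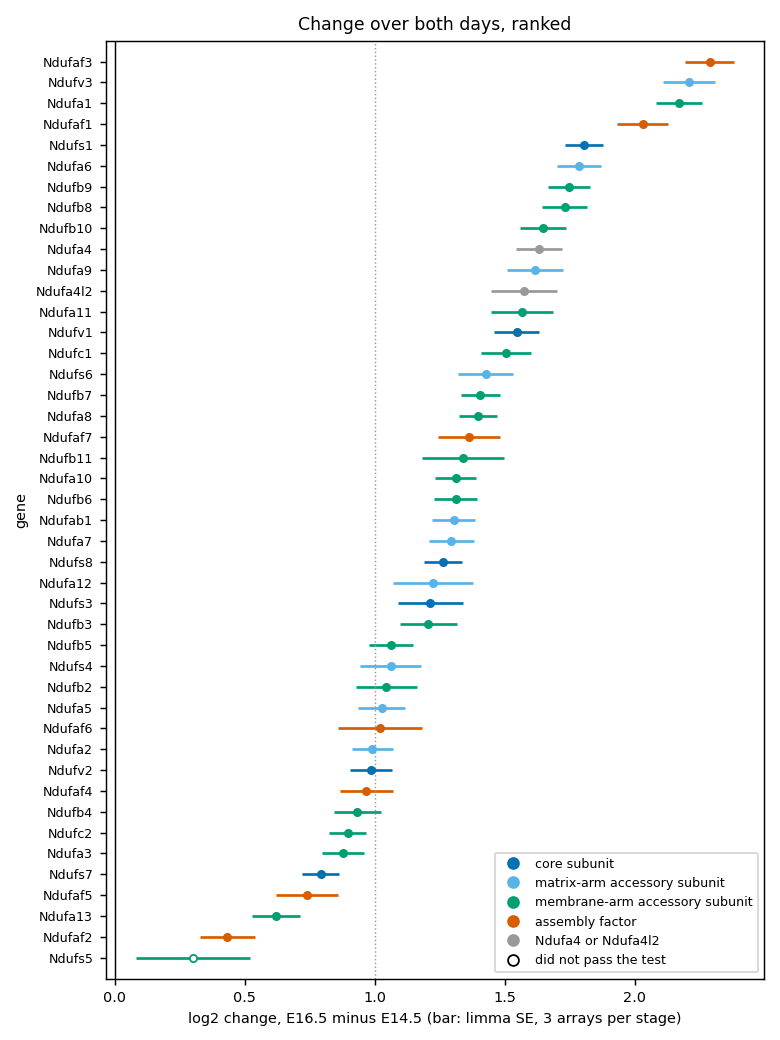
Log2 change from E14.5 to E16.5 for 44 Nduf genes (vertical axis, ranked; change on the horizontal axis), with the limma SE as a bar and 3 arrays per stage. Ndufaf3 lies highest at 2.29 and Ndufs5, the one open point, lowest at 0.30, and assembly factors occur at both ends.

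The assembly factors were compared with the subunits by their counts and medians, with no test between the classes, since genes are not replicates. All 7 rose over both days. Their median change was 1.02 in log2, a 2.03-fold rise, against 1.31 and 2.47-fold for the 36 subunits. The quartiles of the assembly factors were 0.85 and 1.70 and those of the subunits 1.04 and 1.58. Per array at E16.5, the median assembly factor stood 1.05, 1.46 and 0.89 above its E14.5 mean in replicates 1, 2 and 3, and the median subunit 1.34, 1.39 and 1.28. The assembly factors were thus below the subunits on replicates 1 and 3 and above them on replicate 2, the array that stands apart. Without that array the medians over both days were 0.92 for assembly factors and 1.30 for subunits.

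Ndufaf3, which works with Ndufaf4 in building the ubiquinone-binding module, had the highest change of all 45 genes. It read 8.02, 8.21 and 8.02 at E14.5, 9.27, 9.38 and 9.27 at E15.5, and 10.35, 10.51 and 10.25 at E16.5. The stages were far apart relative to their spread, and the rise was 2.29 ± 0.09 (limma adjusted p = 1.36e-08), or 4.89-fold. Its partner Ndufaf4 rose by 0.97 ± 0.10, with 8.15, 8.24 and 8.21 at E14.5 and 9.2482, 9.2611 and 8.9996 at E16.5. The E15.5 arrays of Ndufaf4, at 9.02, 8.74 and 8.92, overlapped those of E16.5.

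Ndufaf1, a member of the complex that assembles the membrane arm, had 8.63, 8.76 and 8.70 at E14.5, 10.01, 10.10 and 10.09 at E15.5, and 10.65, 10.93 and 10.61 at E16.5. No arrays of different stages overlapped, and the rise was 2.03 ± 0.10 (limma adjusted p = 3.78e-08). Ndufaf7, a methyltransferase, rose by 1.36 ± 0.12, and Ndufaf5, which hydroxylates Ndufs7, by 0.74 ± 0.12. Ndufaf6, needed for an early step in assembly, rose by 1.02 ± 0.16. Its E16.5 arrays read 7.63, 8.38 and 7.81, and without replicate 2 the change was 0.80 (adjusted p = 5.91e-05).

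Ndufaf2, a relative of Ndufa12 that holds its place until a late step, changed least among the assembly factors. It had 5.50, 5.50 and 5.53 at E14.5, 5.75, 5.54 and 5.63 at E15.5, and 6.04, 6.08 and 5.71 at E16.5. E15.5 and E16.5 overlapped, and the change over both days was 0.43 ± 0.11 (limma adjusted p = 0.00759). Ndufa12 itself rose by 1.23. The entry 1810043H04Rik, now Ndufaf8, rose by 1.21 ± 0.10.

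**Figure D3:**
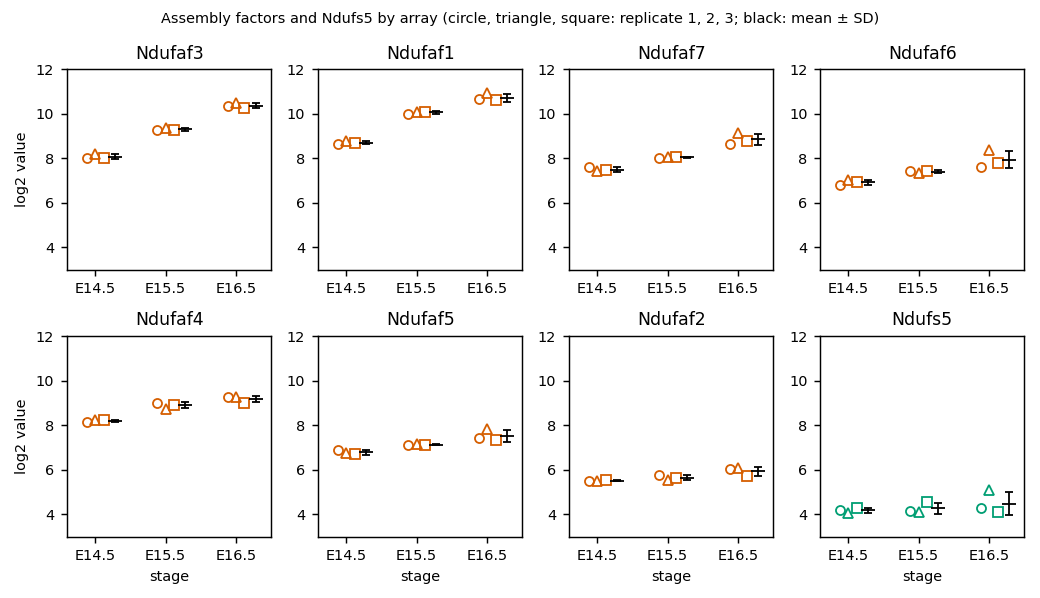
Log2 values of the 7 assembly factors and of Ndufs5 on each array, by stage, with mean ± SD in black; circles, triangles and squares are replicates 1, 2 and 3. Ndufaf3 and Ndufaf1 climb by over 2 log2 units, Ndufaf2 by 0.43, and at E16.5 the triangle lies highest of the 3 arrays in all 8 panels.

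Ndufa4 was first listed with complex I and is now assigned to cytochrome c oxidase, and Ndufa4l2 is a relative known to be induced by low oxygen. Ndufa4 read 9.61, 9.79 and 9.70 at E14.5, 10.49, 10.49 and 10.47 at E15.5, and 11.23, 11.48 and 11.28 at E16.5. It rose by 1.63 ± 0.09 over both days (limma adjusted p = 9.94e-08), within the range of the subunits. Ndufa4l2 had 5.55, 5.35 and 5.75 at E14.5, 6.52, 6.48 and 6.48 at E15.5, and 7.21, 7.29 and 6.87 at E16.5. The stages were separate and the rise was 1.57 ± 0.13 (limma adjusted p = 2.01e-06).

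The single days were then compared. The daily comparisons share the E15.5 arrays, so their values are given side by side. From E14.5 to E15.5, 40 of 45 genes rose and 0 fell, where 9.07% of all entries rose and 11.2% fell. From E15.5 to E16.5, 39 rose and 0 fell, where 11.2% of all entries rose and 8.46% fell (11.2% and 13.1% with median centring). In all, 36 genes rose on both days, and the share of all entries that did so was not counted. The median change was 0.75 on the first day and 0.56 on the second, which is 0.71 and 0.46 above the median entry. Subunits rose in 34 of 36 cases on the first day and 32 on the second, with medians of 0.75 and 0.55. Assembly factors rose in 4 of 7 cases on the first day and 5 on the second, with medians of 0.54 and 0.53. The first-day count was 6 with quantile normalization, median centring, a mean of at least 5, array weights or only the 6 arrays compared. It was also 6 without E16.5 replicate 2, and 4 to 6 when any 1 array was left out. Without E16.5 replicate 2 the second-day median of the assembly factors was 0.31 and that of the subunits 0.55. The second-day count of assembly factors was 3 when any single E14.5 or E15.5 array was left out and 7 without E16.5 replicate 3.

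On the first day the genes that did not pass were Ndufs5, Ndufb11 (0.35 ± 0.16, limma adjusted p = 0.18), Ndufaf2 (0.13 ± 0.11, adjusted p = 0.543), Ndufaf5 (0.35 ± 0.12, adjusted p = 0.0696) and Ndufaf6 (0.49 ± 0.16, adjusted p = 0.0563). Without E16.5 replicate 2, whose spread enters the shared error, Ndufb11, Ndufaf5 and Ndufaf6 passed with the same first-day changes; Ndufaf5 also passed without E16.5 replicate 3 and Ndufaf6 without E16.5 replicate 1. Ndufaf1 had the highest first-day change, 1.37 ± 0.10 (adjusted p = 3.03e-06). Ndufb9 followed among the accessory subunits, at 1.15 ± 0.08, then Ndufv3 at 1.10 ± 0.10, Ndufb10 at 1.06 ± 0.09 and Ndufb8 at 1.01 ± 0.09. The low rises of Ndufa3 (0.33) and Ndufa13 (0.35) ended without any of 5 single arrays of these stages, that of Ndufa12 (0.53) without any of 4 and that of Ndufb3 (0.46) without E14.5 replicate 1 or 3. Over those alternatives the changes were 0.28 to 0.33 for Ndufa3, 0.32 to 0.35 for Ndufa13, 0.46 to 0.52 for Ndufa12 and 0.41 to 0.43 for Ndufb3.

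On the second day the genes that did not pass were Ndufs5, Ndufs7 (0.22 ± 0.07, limma adjusted p = 0.0506), Ndufa13 (0.27 ± 0.09, adjusted p = 0.0668), Ndufb2 (0.28 ± 0.12, adjusted p = 0.14), Ndufaf2 (0.30 ± 0.11, adjusted p = 0.0733) and Ndufaf4 (0.28 ± 0.10, adjusted p = 0.0876). Ndufs7 passed without E16.5 replicate 2, and Ndufa13, Ndufb2, Ndufaf2 and Ndufaf4 passed without E16.5 replicate 3. Replicate 2, the array that stands apart, read highest at E16.5 for Ndufa13, Ndufb2, Ndufaf2 and Ndufaf4. Without replicate 2 these genes had smaller changes and did not pass. They were 0.18 for Ndufa13 (limma adjusted p = 0.0527), 0.22 for Ndufb2 (0.264), 0.23 for Ndufaf2 (0.135) and 0.23 for Ndufaf4 (0.141). Ndufa1 had the highest second-day change, 1.17 ± 0.09, ahead of Ndufv3 (1.11 ± 0.10), Ndufaf3 (1.07 ± 0.09), Ndufb11 (0.99 ± 0.16) and Ndufa7 (0.88 ± 0.09). Ndufb11, an X-linked subunit of the membrane arm, read 6.76, 7.05 and 6.82 at E14.5, 7.13, 7.31 and 7.24 at E15.5, and 8.08, 8.62 and 7.95 at E16.5. The 3 stages did not overlap, and the spread was widest at E16.5 (SD 0.353, against 0.155 at E14.5 and 0.0907 at E15.5). The rises of Ndufaf5 (0.39 ± 0.12) and Ndufaf6 (0.53 ± 0.16) ended without any single E14.5 or E15.5 array, and that of Ndufs3 (0.45 ± 0.13) without any E15.5 array or without E16.5 replicate 1 or 3. The call of Ndufs3 also ended with quantile normalization and with median centring, and those of Ndufs3, Ndufa5, Ndufaf5 and Ndufaf6 with only the 6 arrays compared. That of Ndufa5 (0.36 ± 0.09) ended without E15.5 replicate 2 or 3. Over the single-array omissions adjusted p was at most 0.125. The changes were 0.38 to 0.40 for Ndufaf5, 0.50 to 0.54 for Ndufaf6, 0.37 to 0.50 for Ndufs3 and 0.33 to 0.35 for Ndufa5.

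**Figure D4:**
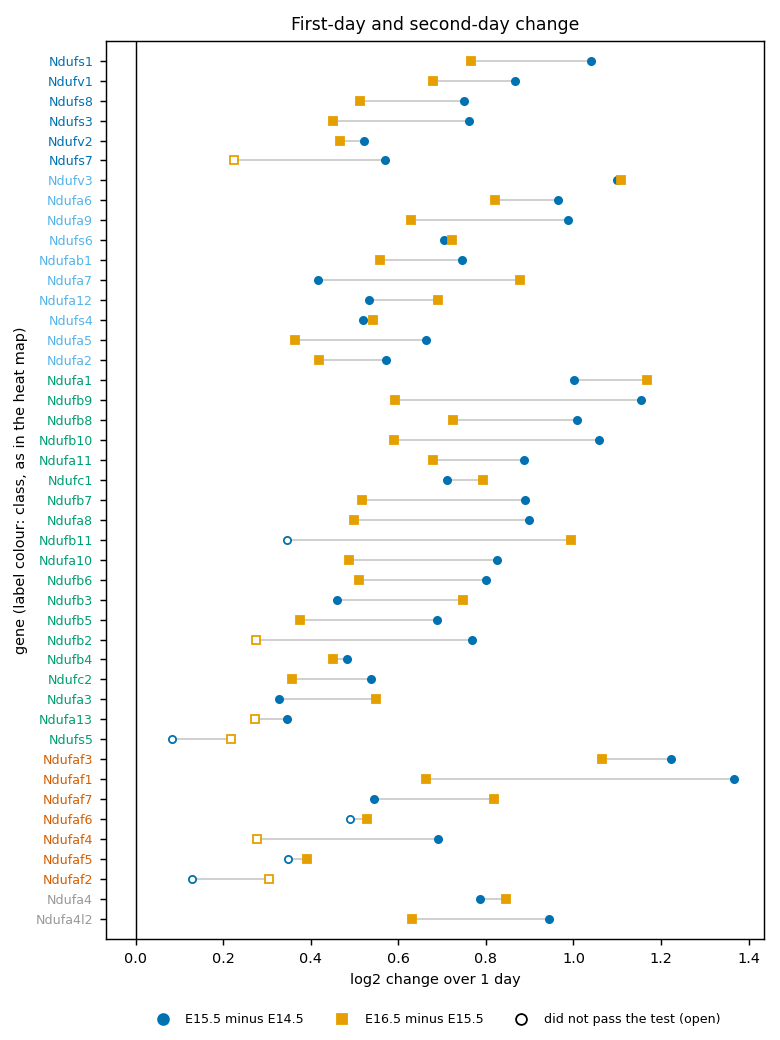
Log2 change of 44 Nduf genes from E14.5 to E15.5 (circles) and from E15.5 to E16.5 (squares); open symbols did not pass the test. The circle lies to the right of the square for most genes, with the longest distances for Ndufaf1 and, in the other direction, Ndufb11.

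The first-day change was the larger for 29 of 45 genes, among them 25 of 36 subunits and 3 of 7 assembly factors. Without E16.5 replicate 2 it was the larger for 38 of 45 genes, 31 of 36 subunits and 5 of 7 assembly factors. How many of all entries had the larger change on the first day was not counted. Whether the days differed was tested gene by gene with a contrast, the change of the second day minus that of the first. The median Nduf gene had -0.18 in it and the median entry 0.08. Values above 0 were found for 0 of 4 complex II, 0 of 9 complex III, 2 of 10 complex IV and 5 of 16 complex V genes. In this contrast 0 genes were higher and 2 were lower, where 2.79% of all entries were higher and 2.41% lower (3.25% and 4.35% with median centring). The 2 genes, 4.44% of the 45, were Ndufaf1, at -0.70 ± 0.17 (limma adjusted p = 0.0388), and Ndufb9, at -0.56 ± 0.14 (adjusted p = 0.0476). Both calls were fragile. That of Ndufaf1 ended without any single array other than E16.5 replicate 2 (-0.76 to -0.64), and that of Ndufb9 without any single array other than E16.5 replicates 1 and 2, as well as with centring of the arrays or with a replicate block (-0.64 to -0.52 over these). Without E16.5 replicate 2 the number lower was 6 (13.3%), where 5.86% of all entries were lower. Ndufb11 had the highest value, 0.65 ± 0.27, followed by Ndufa7 at 0.46 ± 0.15, Ndufb3 at 0.29 ± 0.19 and Ndufa3 at 0.22 ± 0.14. Besides Ndufb9, the lowest accessory subunits were Ndufb2 (-0.49 ± 0.21), Ndufb10 (-0.47 ± 0.15) and Ndufa8 (-0.40 ± 0.13).

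Other genes that build complex I were read from a list beside the Nduf genes. Of 10 assembly factors with other names, all 10 rose over both days, with a median of 1.29, against 1.02 for the 7 Ndufaf genes and 1.31 for the subunits. Ecsit, which works with Ndufaf1 on the membrane arm, rose most, by 2.18 ± 0.08 (limma adjusted p = 5.44e-09). Its values were 7.44, 7.49 and 7.57 at E14.5, 8.74, 8.74 and 8.78 at E15.5, and 9.70, 9.73 and 9.60 at E16.5, so the stages were separate. Tmem186, of the same assembly complex, rose least, by 0.83 ± 0.10.

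The 7 subunits encoded in mitochondrial DNA changed less over both days than most nuclear subunits, with a median of -0.07. Of the 7, 2 rose (28.6%) and 0 fell, where 22.0% of all entries rose. ND4L, a small membrane subunit, had the lowest change. It read 12.36, 12.17 and 12.22 at E14.5, 12.11, 11.85 and 12.12 at E15.5, and 12.14, 12.16 and 12.12 at E16.5, a change of -0.11 ± 0.10 (limma adjusted p = 0.347). The stages lay close together and near the top of the scale, since the highest value of any entry was 12.94 to 13.15 on the 9 arrays. Of the 7 genes, 6 had no value below 11.85, and whether changes are compressed at that level was not tested. ND6, the only one of these genes on the other strand of mitochondrial DNA, was the exception, with 8.55, 8.44 and 8.19 at E14.5, 8.74, 8.50 and 8.63 at E15.5, and 8.97, 9.35 and 9.05 at E16.5. It rose by 0.73 ± 0.13 (limma adjusted p = 7.99e-04), and ND3 by 0.23 ± 0.08 (adjusted p = 0.0318), a call that ended without any E14.5 array, without E15.5 replicate 3, and in 3 other settings (0.17 to 0.25 over these).

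Set beside the other respiratory complexes, the complex I subunits had a median below those of complexes II, III and IV and above that of complex V, with no test between complexes. Over both days the median change was 1.73 for 4 complex II subunits, 1.56 for 9 of complex III, 1.41 for 10 common subunits of complex IV, 1.31 for the 36 of complex I and 0.53 for 16 complex V genes. Rises passed the test in 4 of 4, 9 of 9, 9 of 10, 35 of 36 and 12 of 16 cases, in that order. Of the complex V genes, 2 fell. The order of complexes I and IV varied by array. At E16.5 the median complex I subunit stood 1.34, 1.39 and 1.28 above its E14.5 mean in replicates 1, 2 and 3. The median complex IV gene stood 1.23, 1.41 and 1.38 above. On the first day the median change was 0.75 for complex I subunits and 0.68 for complex IV.

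**Figure D5:**
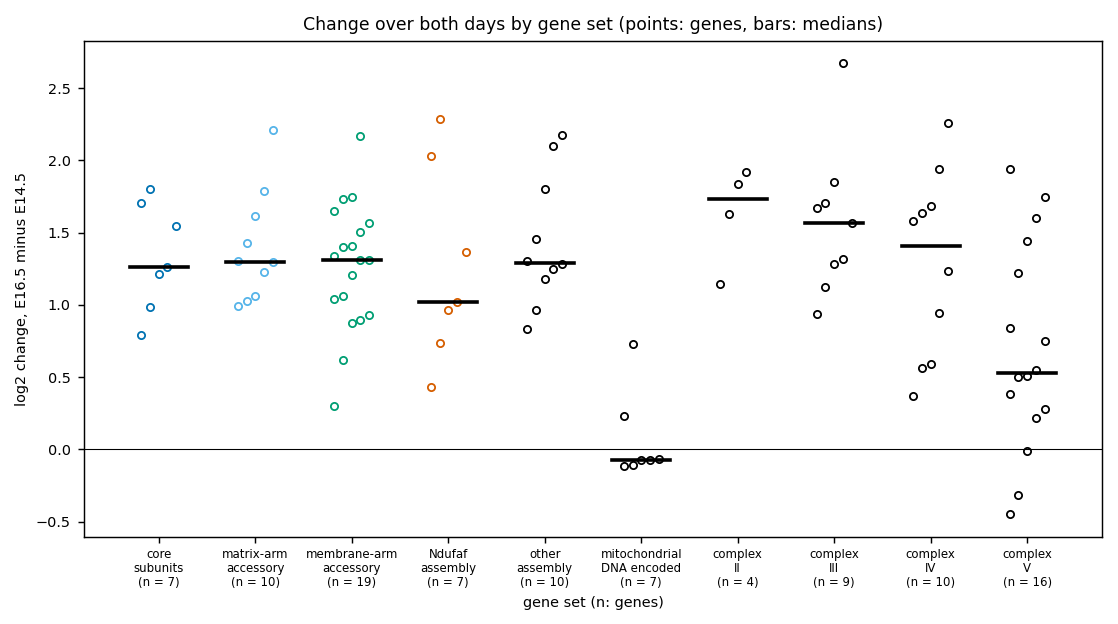
Log2 change from E14.5 to E16.5 of single genes (points) and set medians (bars) for the complex I classes, other assembly factors, subunits encoded in mitochondrial DNA, and complexes II to V. The 3 nuclear subunit classes have medians of 1.26 to 1.31, the Ndufaf genes 1.02, and the mitochondrially encoded subunits -0.07.

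Because the nuclear genes moved together, their promoters were read from RefSeq sequences of build GRCm38.p6, which held 39 of the 45 genes. No promoter was matched for Ndufa2, Ndufa4l2, Ndufaf6, Ndufb9 and Ndufs1, among others. Shown are 250 bases before the gene start for the assembly factor and the subunit that rose most, for Ndufs6 and Ndufb4, which hold motifs, and for Ndufs5, which did not pass. They lie at chr9:108567437-108567686 (minus strand), chr17:31519865-31520114 (plus), chr13:73328483-73328732 (minus), chr16:37654369-37654618 (minus) and chr4:123718187-123718436 (minus), and are written 5′ to 3′ on the gene's strand. Capitals mark the searched motifs.
Ndufaf3: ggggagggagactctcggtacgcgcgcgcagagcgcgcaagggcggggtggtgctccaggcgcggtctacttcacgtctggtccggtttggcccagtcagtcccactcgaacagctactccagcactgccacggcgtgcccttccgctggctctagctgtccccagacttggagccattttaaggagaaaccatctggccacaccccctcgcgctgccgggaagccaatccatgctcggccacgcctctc
Ndufv3: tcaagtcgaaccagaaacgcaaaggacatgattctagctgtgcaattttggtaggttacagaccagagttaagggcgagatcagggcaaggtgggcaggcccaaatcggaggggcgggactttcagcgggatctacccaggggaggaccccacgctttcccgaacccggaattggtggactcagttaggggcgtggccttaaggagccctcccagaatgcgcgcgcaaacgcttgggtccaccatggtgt
Ndufs6: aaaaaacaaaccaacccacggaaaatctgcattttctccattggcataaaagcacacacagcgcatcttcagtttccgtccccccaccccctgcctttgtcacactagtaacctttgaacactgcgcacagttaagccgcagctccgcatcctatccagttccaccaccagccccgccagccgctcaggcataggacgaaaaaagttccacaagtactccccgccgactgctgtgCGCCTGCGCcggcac
Ndufb4: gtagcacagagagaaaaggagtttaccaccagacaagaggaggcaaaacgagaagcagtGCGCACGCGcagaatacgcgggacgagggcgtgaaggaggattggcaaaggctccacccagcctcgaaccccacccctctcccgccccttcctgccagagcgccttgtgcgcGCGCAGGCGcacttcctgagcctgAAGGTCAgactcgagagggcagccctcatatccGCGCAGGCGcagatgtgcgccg
Ndufs5: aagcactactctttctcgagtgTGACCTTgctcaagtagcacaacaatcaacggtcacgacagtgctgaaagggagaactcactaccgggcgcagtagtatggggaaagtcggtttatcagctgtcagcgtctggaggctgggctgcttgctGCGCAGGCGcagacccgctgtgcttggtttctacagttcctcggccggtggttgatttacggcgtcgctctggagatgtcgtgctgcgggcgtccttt

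Each motif was searched on both strands in 300 bases, from 250 before to 50 after the start, in the first listed promoter of a gene. The letters GCGCANGCG, part of the site of nuclear respiratory factor 1, a regulator of respiratory genes, were in 10 of 39 Nduf promoters (25.6%) and in 6.47% of 27025 promoters. They occurred in 8 of 32 subunit promoters and 2 of 6 assembly factor promoters. AAGATGGC, part of the YY1 site, was in 7 of 39 (17.9%), all of them subunit promoters, and in 2.88% of all. Part of the ETS site bound by GABPA, CCGGAAG, was in 5 of 39 (12.8%) and in 9.12% of all. AAGGTCA, the core of the site of estrogen-related receptors, was in 3 of 39 (7.69%) and in 4.66% of all. In the printed windows Ndufb4 has GCGCANGCG at 3 places and AAGGTCA once, Ndufs5 has each of them once, and Ndufs6 has GCGCANGCG once. The stretches of Ndufaf3 and Ndufv3, the genes with the largest rises of their classes, hold none of these letters. A match is a description of the sequence, and binding was not measured.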

How the data were processed

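RNA from embryonic BAT was measured on 9 MoGene-2_0-st arrays, 3 for each of 3 stages. The deposited table gives log2 values, 1 per gene symbol; the submitters' processing notes name Partek 7.0 and RMA. The annotation, the build and the rule that gave 1 value per symbol are not given in the sources used here. Fold changes of dim or very bright genes may be compressed, and the number of arrays limits the precision.

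All 30915 entries were fitted together on the 9 arrays with limma 3.58.1 (R 4.3.3) and a mean for each stage (6 residual degrees of freedom, lmFit and eBayes). Tests were two-sided with Benjamini-Hochberg adjustment. The fit was also run on simulated arrays with independent noise. These hold no array that stands apart and no equal values, so that run does not bear on either. Replicate numbers 1 to 3 recur in each stage, but same-numbered arrays deviated from their stage means with correlations of -0.134 to 0.1, so they were not treated as pairs. Alternatives were quantile normalization, median centring, a mean of at least 5, another prior, array weights, a replicate block, the 6 arrays compared, and leaving out each array. Members and gene lists were chosen with earlier results of these data known. Values are given by name for the core subunits, except 1 that is not reported here, for all Ndufaf genes, Ndufa4 and Ndufa4l2, and for the 4 highest and 4 lowest other subunits of each comparison; further subunits were named after their values were seen.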

Additional observations from a re-analysis of the deposited data

Results flagged for a closer look

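The second-day change differed from the first-day change by the limma contrast of the difference itself for 2 of the 45 Nduf genes and 1 other assembly factor, where 2.79% of all entries were higher and 2.41% lower. The Ndufaf1 and Ndufb9 calls ended in 8 and 9 alternatives. Ndufaf1 had -0.70 (adjusted p = 0.0388) and Ndufb9 -0.56 (adjusted p = 0.0476), both with the smaller rise on the second day. Tmem70, an assembly factor first known for ATP synthase, had -0.65 (adjusted p = 0.0167), and its call was not followed through the alternatives. The cause was not tested.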

How the results depend on the processing

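Over both days 44 Nduf genes rose and 0 fell in each alternative run. On the first day 36 to 43 rose and on the second 35 to 42 when 1 array was left out. Assembly factors that rose on the second day numbered 3 with only the 6 arrays compared, and 3 to 7 when 1 array was left out. The second-day minus first-day contrast moved most. Genes lower there, 2 in the main analysis, numbered 5 with quantile normalization, 5 with a mean of at least 5, 7 with the trend and robust prior, 7 with array weights, 1 with the replicate block, and 0 to 6 when 1 array was left out. Of all entries, 2.41% were lower in the main analysis and 4.71%, 7.77%, 3.42%, 6.32% and 1.99% under those settings, in order. The subunits among them, 1 in the main analysis, numbered 4, 4, 6, 6 and 0 in that order. They numbered 2 with median centring and 0 to 5 when 1 array was left out. With median centring 3 genes in all were lower (6.67%), where 4.35% of all entries were. When 1 array was left out, 1.04% to 5.86% of all entries were lower. Assembly factors lower numbered 0 to 1 when 1 array was left out. With the mean filter 1 gene, a subunit, was higher, where 9.11% of the entries kept were higher. With array weights 1 was higher, where 6.05% of all entries were. The median second-day change of the subunits was 0.44 with quantile normalization and 0.48 with median centring, and over both days 1.24 with centring. The median first-day change of the assembly factors was 0.53 to 0.60 when 1 array was left out. Ndufs5 reversed without being called. Its first-day change was -0.0607 to 0.16 when 1 array was left out, lowest without E15.5 replicate 3. Its second-day change was -0.0790 to 0.40 when 1 array was left out, lowest without E16.5 replicate 2, and -0.0417 with array weights. The cause was not tested. Apart from the contrast, the replicate block changed 2 calls of named genes, Ndufaf6 on the first day (gained) and ND3 over both days (lost). Of 2324 single-gene values under alternatives, 2209 kept their direction and side of the threshold, 66 lost a call, 46 gained one and 3 reversed. With 3 arrays per stage and values near either end of the scale, small changes were hard to measure.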
